A study of Homo sapiens with 9 samples.

Results

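The 14-3-3 proteins are small acidic adaptor proteins that work as dimers and bind other proteins at phosphorylated serine or threonine. In human cells 7 genes encode them, YWHAB (β), YWHAE (ε), YWHAG (γ), YWHAH (η), YWHAQ (θ), YWHAZ (ζ) and SFN (σ, stratifin). The 7 genes were chosen by symbol as the whole family, with results of these libraries already known, among them the low levels of YWHAZ and YWHAB after ERRα knockdown. Values of the 14-3-3 genes and their processed copies in the knockdown comparison are therefore given as a description with no test, and their p-values are given for imatinib. For lists of other genes, calls are counted in both comparisons. These lists were also chosen with earlier results of these data known, so the shares of calls in them are descriptions too. All 7 were found among the 61209 gene rows of the deposited table. Of these, 6 passed the filter on low counts and are among the 16976 genes tested, and SFN did not pass.

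Binding of a 14-3-3 dimer can hold a client protein in the cytoplasm, hide or expose a docking surface, or keep a kinase in an inactive shape. Known clients include the Hippo effectors YAP and TAZ, the FOXO factors, the CDC25 phosphatases and the death agonist BAD. Kinases such as AKT and LATS write the docking site, and PP1 and PP2A can remove it. In growth factor signaling, to which KIT belongs, the family acts at several of these steps.

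RNA was sequenced from GIST-T1 (T1), a human gastrointestinal stromal tumor cell line with the genotype KIT exon 11 del560-79 and sensitivity to imatinib. The 3 groups of 3 libraries each were ERRα knockdown with an siRNA against ESRRA (siERRα, libraries S4, S5 and S6), non-target siRNA with 50 nM imatinib (imatinib, S16, S17 and S18), and non-target siRNA alone (siNC, S1, S2 and S3). All cells were transfected and harvested at 48 h, so transfection with an siRNA is common to every group. The siRNA itself differed between siERRα and the other groups, so other effects of its sequence cannot be told apart from the knockdown. Imatinib, an inhibitor of KIT, was given on top of the non-target siRNA. Each group was plated in triplicate within 1 cell line, and nothing says that the triplicates were independent experiments. P-values therefore measure the spread between these libraries, which may be technical.

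The library totals lay between 37527236 and 49363002 counts. ESRRA, the gene that encodes ERRα, stood at 1.40, 0.757 and 1.34 CPM (CPM scales counts to a common library size, here after TMM normalization) in siERRα and at 30.4, 32.0 and 35.6 CPM with imatinib, against 40.7, 44.7 and 40.9 CPM in siNC. Mitochondrially encoded genes took 0.846% to 1.54% of the counts, highest in the 3 imatinib libraries. Of the GIST markers, KIT averaged 1366 CPM in siERRα, 1526 CPM with imatinib and 1304.5 CPM in siNC (n = 3 each), and ANO1 and ETV1 were also present in every library. The leukocyte and endothelial markers summed to 1.85 to 2.14 CPM in siERRα, 2.90 to 3.93 CPM with imatinib and 2.15 to 2.42 CPM in siNC over 7 genes.

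YWHAZ, the ζ gene and a partner of BAD, showed the greatest difference of the family after ERRα knockdown. It stood at 436, 509 and 447 CPM in siERRα libraries and at 924, 1018 and 965 CPM in imatinib libraries, against 1211, 1125 and 1184 CPM in siNC libraries. No library of a group reached the range of another group, and siERRα lay far below both. The log2 fold change of siERRα against siNC was −1.34 (standard error 0.0627), or 39.5% of the siNC level, and 83 of the 16976 genes tested had a lower one. YWHAZ lies on chromosome 8 of GRCh38 from 100916523 to 100953388 on the minus strand, and its canonical transcript has 6 exons. In bulk RNA, a smaller share of cells with YWHAZ RNA and less YWHAZ RNA per cell cannot be told apart.

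YWHAB, the β gene and the closest to YWHAZ in its pattern within the family, lies on chromosome 20 from 44885702 to 44908532. It stood at 298, 332 and 304 CPM in siERRα and at 513, 541 and 538 CPM with imatinib, against 578, 558 and 571 CPM in siNC. The siERRα libraries lay well under the other 6, while imatinib lay just under siNC. The log2 fold change after knockdown was −0.87 (standard error 0.0542), or 54.7% of the siNC level. With imatinib it was −0.10 (standard error 0.0537), and YWHAB did not pass the test (adjusted p = 0.147, quasi-likelihood test of edgeR).

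YWHAE, the ε gene on chromosome 17 (1344275 to 1400222), which binds CDC25 phosphatases among many clients, had the highest counts of the family. Its levels were 1452, 1431 and 1482 CPM in siERRα and 1418, 1433 and 1442 CPM with imatinib, against 1743, 1775 and 1748 CPM in siNC. Both treated groups lay under every siNC library and overlapped each other. The log2 fold change was −0.27 (standard error 0.0474) after knockdown. With imatinib YWHAE fell by 0.29 on the log2 scale (standard error 0.0474, adjusted p = 5.79e-05 from edgeR).

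YWHAG, the γ gene on chromosome 7 (76326799 to 76358991), had 2 differences of opposite signs, as did YWHAH. It had 656, 700.5 and 652 CPM in siERRα and 447, 449 and 450.5 CPM with imatinib, against 593, 578 and 579 CPM in siNC. The siERRα libraries were the highest and the imatinib libraries the lowest, with no overlap between any groups. The log2 fold change was 0.20 (standard error 0.0498) after knockdown and −0.38 with imatinib (standard error 0.0499, adjusted p = 6.28e-06 from edgeR), the greatest imatinib change of the family. The 2 comparisons share the siNC libraries, and the difference between them was not tested.

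YWHAH, the η gene on chromosome 22 (31944522 to 31957603), had the reverse pattern at a lower level. It stood at 170.2, 170.2 and 165 CPM in siERRα and at 207, 204 and 212 CPM with imatinib, against 179, 183 and 180.0 CPM in siNC. Here imatinib was highest and siERRα lowest, again with no overlap. YWHAH rose with imatinib by 0.20 on the log2 scale (standard error 0.0497, adjusted p = 0.00321 from edgeR), and its log2 fold change after knockdown was −0.10 (standard error 0.0497). YWHAH overlaps the antisense RNA YWHAH-AS1 over 22 bases, and since the strand setting of the counting is not given, reads there cannot be assigned. On the same strand YWHAH overlaps the protein-coding gene ENSG00000285404 over 105 bases (4.39% of its exons), where reads are ambiguous whatever the strand setting, and that gene had 0 CPM in every library. YWHAH-AS1 averaged 0.435 CPM in siERRα, 0.425 CPM with imatinib and 0.269 CPM in siNC (n = 3 each).

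YWHAQ, the θ gene on chromosome 2 (9583967 to 9630997), varied more between libraries of the treated groups than in siNC. It had 917, 1015 and 912 CPM in siERRα and 813, 924 and 880.3 CPM with imatinib, against 863, 851 and 860.5 CPM in siNC. The imatinib libraries spread on both sides of siNC, and siERRα lay above siNC in each library. The log2 fold change after knockdown was 0.14 (standard error 0.0581), and 0.09 without S5. With imatinib it was 0.02 (standard error 0.0581, adjusted p = 0.777 from edgeR), and without S17 it had the opposite sign at −0.020 (adjusted p = 0.821 from edgeR).

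SFN, the σ gene on chromosome 1 (26863149 to 26864456), is known from stratified epithelia and as a target of p53, and it was nearly absent. It had 4, 0 and 4 counts in siERRα and 1, 3 and 5 counts with imatinib, against 4, 1 and 4 counts in siNC. These are too few for a fold change. The epithelial markers EPCAM (0.0871, 0.118 and 0.175 CPM on average in siERRα, imatinib and siNC) and KRT5 and KRT14 (0 in every library) were at or near 0 as well. Of the 10 epithelial markers, KRT18 and its partner KRT8, keratins also found outside epithelia, were the exceptions above 1 CPM on average. KRT18 stood at 280.2 CPM in siERRα, 196 CPM with imatinib and 296 CPM in siNC, and KRT8 at 11.7, 8.46 and 11.3 CPM in these groups. CDH1, the gene of E-cadherin, rose with imatinib at a low level, to 0.831 ± 0.176 CPM against 0.353 ± 0.0737 CPM in siNC (SD, n = 3 each). Its log2 difference was 1.24 (edgeR, adjusted p = 0.00526), and in siERRα it stood at 0.232 CPM.

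**Figure D1:**
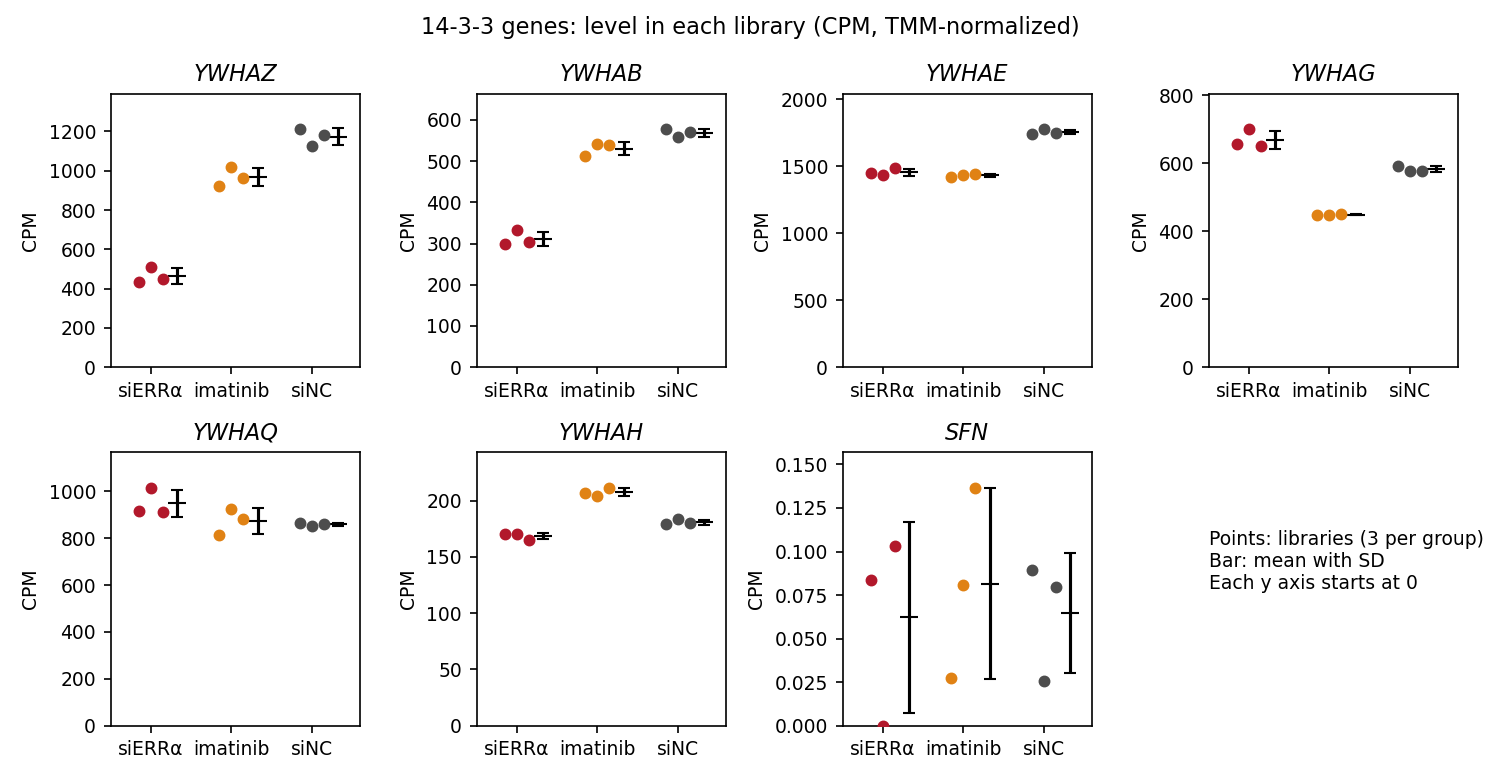
Level of each 14-3-3 gene on the TMM-normalized CPM scale, 1 point a library, beside the mean and SD of each group (n = 3 each). The siERRα libraries of YWHAZ (436 to 509 CPM) and YWHAB (298 to 332 CPM) lie under all others, YWHAG and YWHAH order the groups in opposite ways, and SFN stays under 0.14 CPM.

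Within siERRα, library S5 had the highest value of 4 of the 6 genes that passed the filter (YWHAZ, YWHAB, YWHAG and YWHAQ) and the lowest of YWHAE. S5 was also the library with the lowest ESRRA (0.757 CPM). Within imatinib, S16 was lowest for 5 of 6. Without S5 the log2 fold change of YWHAG after knockdown was 0.16.

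With imatinib, 3 of the 6 genes were called lower (YWHAE, YWHAG and YWHAZ) and 1 higher (YWHAH) at an adjusted p under 0.05, while 20.3% of all genes tested were called lower and 21.4% higher. YWHAZ fell by 0.28 on the log2 scale (standard error 0.0616, adjusted p = 0.00132 from edgeR), to 82.6% of the siNC level. The median log2 fold change of the 6 genes with imatinib was −0.19, and that of all genes tested was 0.00. After knockdown the median log2 fold change of the 6 genes was −0.19 as well, and that of all genes was 0.01. This median comes from the comparison with which the family was singled out, and nothing is read from it.

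**Figure D2:**
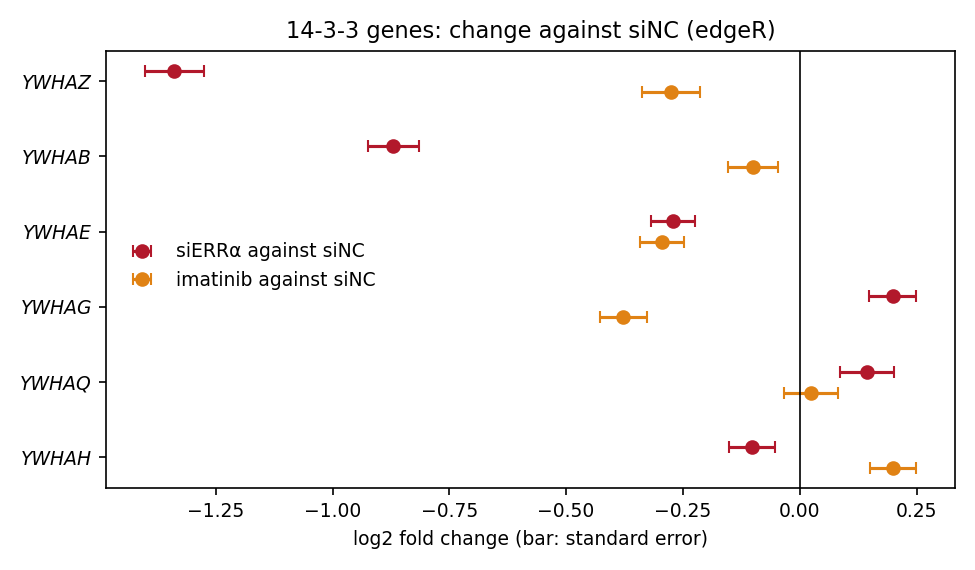
Log2 fold change from edgeR of the 6 genes that passed the filter, for siERRα against siNC and imatinib against siNC, with standard errors. YWHAZ (−1.34) and YWHAB (−0.87) lie far to the left after knockdown, YWHAE is near −0.3 in both comparisons, and YWHAG and YWHAH lie on opposite sides of 0.

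The summed level of the family was lower in both treated groups. It was 3929, 4158 and 3963 CPM in siERRα and 4322, 4571 and 4488 CPM with imatinib, against 5167, 5071 and 5122 CPM in siNC. The groups did not overlap, and the means were 4017 ± 123, 4460.4 ± 127 and 5120.1 ± 47.8 CPM in siERRα, imatinib and siNC (SD, n = 3 each). These means were 78.4% of the siNC total in siERRα and 87.1% with imatinib. The family took 0.403% ± 0.00771 of all counts in siERRα, 0.435% ± 0.0131 with imatinib and 0.521% ± 0.00921 in siNC (SD, n = 3 each).

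The genes behind the lower totals differed. The mean total of siERRα minus that of siNC was −1104 CPM, to which YWHAZ gave −709 CPM, YWHAE −300.5 CPM and YWHAB −258 CPM, while YWHAG and YWHAQ were 86.2 and 90.0 CPM higher. For imatinib minus siNC it was −659.7 CPM, with −324 CPM in YWHAE, −204 CPM in YWHAZ and −134 CPM in YWHAG, and YWHAH was 26.8 CPM higher. Without YWHAZ the total was 3553 ± 84.2 CPM in siERRα and 3491 ± 82.1 CPM with imatinib, against 3947 ± 8.47 CPM in siNC (SD, n = 3 each). Without both YWHAZ and YWHAB, siERRα stood at 95.96% of the siNC total and imatinib at 87.6%.

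**Figure D3:**
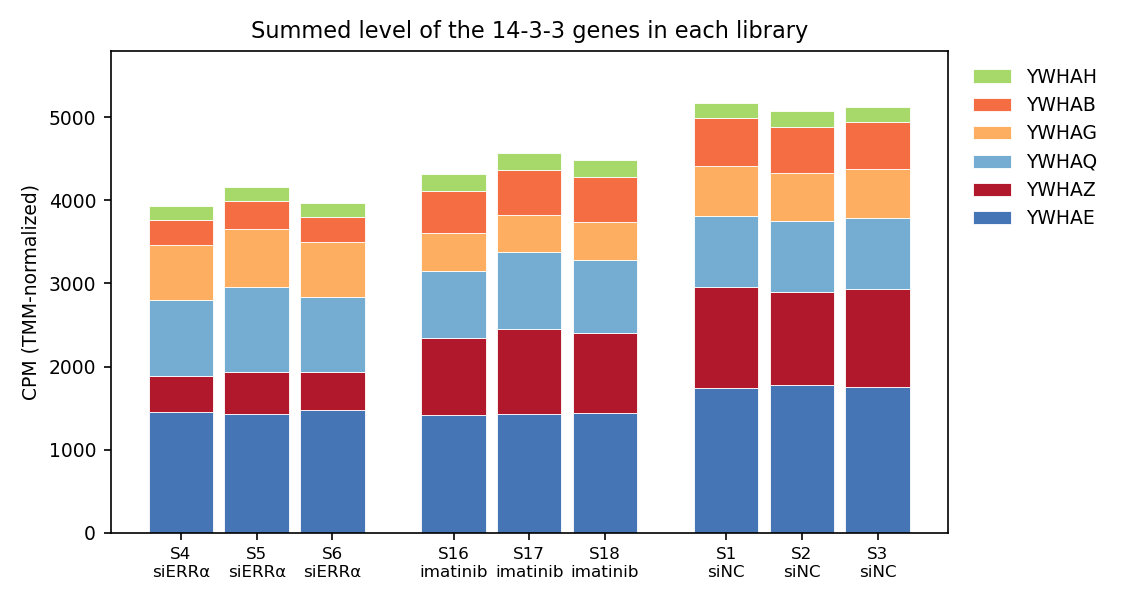
Summed level of the 14-3-3 genes in CPM in each library, stacked by gene. SFN is too low to be seen and is left out. The YWHAZ block is the smallest in the 3 siERRα libraries (436 to 509 CPM), and the totals lie between 3929 and 4158 CPM there, against 5071 to 5167 CPM in siNC.

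The make-up of the family's counts differed between the groups. The shares of a library add up to the whole, so a fall in a gene's counts raises the shares of the others. YWHAZ took 11.1%, 12.2% and 11.3% of the family's counts in the siERRα libraries and 21.4%, 22.3% and 21.5% in the imatinib libraries, against 23.4%, 22.2% and 23.1% in the siNC libraries. The siERRα libraries held about equal shares that lay well below the rest, and imatinib overlapped siNC. Exact 95% binomial intervals of the shares of the 6 genes reach 0.0713 to 0.242 percentage points to either side, and they cover counting error only. YWHAQ took 23.6% ± 0.731 in siERRα, 19.5% ± 0.710 with imatinib and 16.8% ± 0.0537 in siNC (SD, n = 3 each). YWHAG took 16.7% ± 0.202 in siERRα, 10.1% ± 0.265 with imatinib and 11.4% ± 0.0875 in siNC. YWHAE was the main form in every group, with 36.3% ± 1.60 in siERRα, 32.1% ± 0.724 with imatinib and 34.3% ± 0.650 in siNC. YWHAB took 7.75% ± 0.206 in siERRα, 11.9% ± 0.0826 with imatinib and 11.1% ± 0.0890 in siNC (SD, n = 3 each). YWHAH held 4.20% ± 0.123, 4.66% ± 0.170 and 3.53% ± 0.0763 in siERRα, imatinib and siNC.

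Levels of different genes can be compared only per length, and the length used decides part of the order. Per kilobase of all annotated exons joined, YWHAE was first in every group, at 395, 388 and 476 CPM per kb in siERRα, imatinib and siNC. YWHAQ came next, at 351, 323 and 318 CPM per kb, and then YWHAG, at 181, 121 and 157 CPM per kb. YWHAZ was in place 4 with imatinib (113 CPM per kb) and in siNC (137 CPM per kb). In siERRα it was in place 5 at 54.2 ± 4.59 CPM per kb, behind YWHAH at 70.4 ± 1.25 CPM per kb (SD, n = 3 each). YWHAB was in place 6 in each group on this scale.

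The annotated exons of YWHAZ and YWHAB add up to 8557 and 7907 bases, against 5011 and 3020 bases in their canonical transcripts. Per kilobase of the canonical transcript, YWHAZ was in place 3 with imatinib (193 CPM per kb) and in siNC (234 CPM per kb), and in place 6 in siERRα, at 92.6 ± 7.83 CPM per kb. There its range over libraries (87.0 to 102 CPM per kb) overlapped that of YWHAH (94.2 to 97.2 CPM per kb). It also overlapped that of YWHAB (98.7 to 109.9 CPM per kb), while YWHAH and YWHAB did not overlap each other. Within each siERRα library YWHAZ lay below YWHAB, while YWHAZ and YWHAH changed order between libraries. With imatinib the ranges of YWHAG (121 to 122 CPM per kb) and YWHAH (117 to 121 CPM per kb) overlapped too, though YWHAG was higher within each library. YWHAE and YWHAQ kept places 1 and 2 on both scales.

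Processed copies of the 14-3-3 genes lie elsewhere in the genome and can take reads from them. Of the 100-base windows of the canonical YWHAZ transcript, 4.09% also occur in the annotated transcript of another gene, in YWHAZP3, YWHAZP5 and YWHAZP10, and 0.424% of those of YWHAH occur in ENSG00000285404. No window of YWHAB, YWHAE, YWHAG, YWHAQ or SFN does. No pair of the 7 genes shares such a window. The 9 YWHAZ copies in the table summed to 12.4 ± 1.68 CPM in siERRα, 25.0 ± 3.06 CPM with imatinib and 25.4 ± 3.13 CPM in siNC (SD, n = 3 each), or 2.67%, 2.58% and 2.17% of YWHAZ itself. How reads with several matches were counted is not given, so the division of reads between YWHAZ and these copies is uncertain. The 6 YWHAZ copies that passed the filter had log2 fold changes from −1.40 to −0.62 after knockdown, values that are not independent of YWHAZ where a copy shares windows with it. With imatinib their log2 fold changes lay between −0.22 and 0.33, and 0 of the 6 were called by edgeR, DESeq2 or limma-voom or had an unadjusted p under 0.05 with any of them.

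YWHAZP3, the most abundant copy, averaged 5.97 ± 0.894 CPM in siERRα, 12.2 ± 2.20 CPM with imatinib and 12.1 ± 1.34 CPM in siNC (SD, n = 3 each). YWHAZP5 averaged 3.37, 7.37 and 7.47 CPM in the same groups. YWHAZP2, YWHAZP4, YWHAZP10, YWHAEP1, YWHAEP5 and YWHAQP4 were the other copies that reached 1 CPM, and all lay under 6 CPM on average. Of these, YWHAEP5 had a log2 fold change of −0.51 after knockdown and fell by 0.53 with imatinib (adjusted p = 0.0156 from edgeR), while YWHAEP1 (0.16, adjusted p = 0.618) and YWHAQP4 (0.07, adjusted p = 0.746) did not pass with imatinib. The copies of YWHAB summed to under 0.33 CPM in each group.

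Untranslated ends of transcripts carry sites through which short RNAs act, and the 14-3-3 genes differ widely in the length of theirs. The 3' UTR of the canonical transcript had 4170 bases in YWHAZ, 2778 in YWHAG, 2094 in YWHAB, 1319 in YWHAQ, 1172 in YWHAE, 811 in YWHAH and 497 in SFN. The median over 12747 protein-coding genes tested was 1397 bases. The 7-base sequence ATGTTCT, picked up in an earlier look at genes with low levels after knockdown in these libraries, was searched on the transcript strand, and its relation to the fold changes was not tested here. It occurred in 19.0% of these genes, in 28.3% of those whose 3' UTR has at least 1000 bases and in 4.95% of the shorter ones. Because YWHAZ and YWHAB were among the genes behind that earlier result, their copies are no independent support for it.

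In the family, 3 of 7 genes held it. YWHAZ, the gene with the lowest log2 fold change after knockdown (−1.34), held 2 copies, which start 1325 and 1913 bases into its 3' UTR. YWHAB (−0.87) and YWHAG (0.20) held 1 copy each. YWHAE (−0.27), YWHAH (−0.10), YWHAQ (0.14) and SFN held none, also when every annotated transcript was searched. The 3 genes that held it are also the 3 with the longest 3' UTRs of the family, and nothing about the knockdown values is read from it.

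The sites of YWHAB and YWHAG are shown with the bases on either side. They are written 5′ to 3′ on the transcript strand from GENCODE transcripts on GRCh38, with the heptamer in capitals. The YWHAB site is at chr20:44907473-44907501 on the plus strand in exon 6, and the YWHAG site at chr7:76326993-76327021 on the minus strand in exon 2.
YWHAB: aaaaaggaatgATGTTCTgtagagatggc
YWHAG: gaacaacaaatATGTTCTctgaatgagcc

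The heptamer begins 1046 bases into the 2094-base 3' UTR of YWHAB, near its middle. In YWHAG it begins 2567 bases into 2778, close to the end. YWHAB has 1 further copy of the same letters in its canonical transcript outside the 3' UTR. Whether any of these copies takes part in the levels was not tested.

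**Figure D4:**
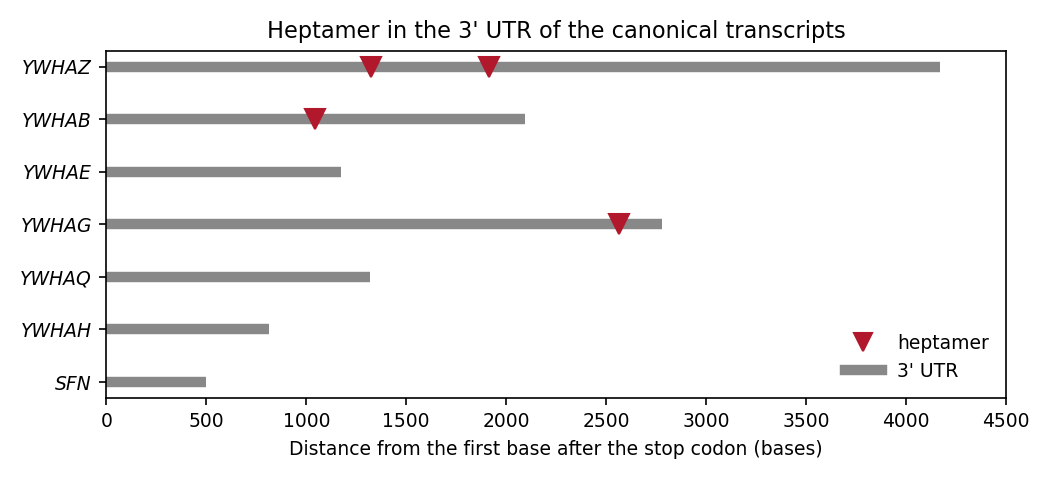
3' UTR of the canonical transcript of each 14-3-3 gene (bar, in bases from the first base after the stop codon) with each copy of the heptamer (triangle). YWHAZ holds 2 copies at 1325 and 1913, YWHAB 1 at 1046 and YWHAG 1 at 2567, and the 4 shorter 3' UTRs hold none.

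ERRα binds DNA as an orphan nuclear receptor at an extended response element, the core AAGGTCA with a T and any base N before it. In RefSeq promoters on GRCh38.p14 (250 bases before to 50 after the start), matched by symbol for YWHAB, YWHAE, YWHAG, YWHAH, YWHAQ and SFN, this extended element was searched on both strands. The YWHAZ promoter was not searched. The element was in 0 of the 6 and in 0.951% of all 35116 promoters. The core AAGGTCA alone, which the extended element contains, was in 0 of the same 6, YWHAZ not among them, and in 3.92% of all promoters. These letters are only not in this window. The 6 promoters had a GC content of 63.7% to 73.7%, against a median of 58.7% over all promoters.

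Genes that had the most similar pattern to YWHAZ over the 9 libraries, among 8869 other protein-coding genes with at least 10 CPM on average, were TSPYL5 (Pearson r of log2 CPM 0.998), UBE3C (0.998), HSPA5 (0.996), YWHAB (0.995) and H3-3B (0.995). All share libraries and differ mainly between the 3 groups, so the values describe the order of the groups. UBE3C, a ubiquitin ligase gene, averaged 131 ± 4.997 CPM in siERRα, 252 ± 11.0 CPM with imatinib and 296 ± 0.956 CPM in siNC (SD, n = 3 each). HSPA5, the main chaperone of the endoplasmic reticulum, averaged 1078 ± 62.2, 1591 ± 26.3 and 1690.2 ± 48.3 CPM in these groups. HSPA5 also led for YWHAB (r = 0.998), followed by OTULIN (0.997) and P3H2 (0.996).

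YWHAG was most like MTDH (r = 0.998), MARK3 (0.998) and CCDC68 (0.997). MARK3, a kinase that is itself a 14-3-3 client, averaged 94.3 ± 2.54 CPM in siERRα, 66.2 ± 0.896 CPM with imatinib and 83.1 ± 1.12 CPM in siNC (SD, n = 3 each). Genes with a pattern close to that of YWHAH included SLC1A4 (0.997) and RPS6KA2 (0.993), a kinase of the RSK family with 616 CPM in siERRα, 814 CPM with imatinib and 688 CPM in siNC. GOT1 (0.993), URB2 (0.991) and EFNA1 (0.983) led for YWHAE, and ZNF273 (0.972), PCMT1 (0.963) and PARG (0.962) for YWHAQ. Between YWHAG and YWHAH the r was −0.98, over the same 9 libraries in 3 groups.

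The client proteins of the family were followed with a list of 54 genes, chosen with earlier results of these data known, of which 52 were tested. With imatinib 12 were called lower and 17 higher (23.1% and 32.7% of those tested, where all genes had 20.3% and 21.4%), with a median log2 fold change of 0.05. KCNK3, a potassium channel whose exit to the cell surface 14-3-3 proteins favour, rose to 5.49 ± 0.304 CPM with imatinib, against 1.17 ± 0.190 CPM in siNC (SD, n = 3 each). This was a log2 difference of 2.22 (edgeR, adjusted p = 5.36e-09). HDAC9, a class IIa histone deacetylase, rose by 0.94 and CRTC1, a coactivator of CREB, by 0.76 on the log2 scale. ARHGEF2, an exchange factor for RhoA, fell by 0.49 (adjusted p = 5.97e-07 from edgeR).

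After knockdown 6 of the 52 were called lower and 12 higher (11.5% and 23.1%, where all genes had 12.6% and 11.4%), with a median log2 fold change of 0.09. IRS1, the insulin receptor substrate, averaged 52.0 ± 5.82 CPM in siERRα and 75.2 ± 1.09 CPM in siNC (SD, n = 3 each; log2 fold change −0.53). PARD3, a polarity protein, had a log2 fold change of −0.49, TFEB, a factor of lysosome genes, of −0.55, and HDAC4, another class IIa deacetylase, of 0.54. YAP1, a well known client, is named here after its values were seen, and it did not pass the test with imatinib. YAP1 averaged 83.4 ± 2.99 CPM in siERRα, 95.2 ± 2.19 CPM with imatinib and 89.9 ± 1.78 CPM in siNC (SD, n = 3 each).

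Kinases that write docking sites numbered 25 tested of 26. With imatinib 6 were called lower and 9 higher (24.0% and 36.0% of those tested, where all genes had 20.3% and 21.4%). PIM3 fell by 0.68, PRKD2, a protein kinase D, by 0.49, SGK1, a kinase related to AKT, by 0.46 and PRKAA1, a catalytic subunit of AMPK, by 0.40 on the log2 scale (adjusted p = 2.51e-06 to 7.24e-05 from edgeR). These had the smallest p of the list. Of the 9 called higher, PRKD1, another protein kinase D, had the smallest p and rose by 0.56 (adjusted p = 0.000134 from edgeR). After knockdown 6 were called lower and 3 higher (24.0% and 12.0%, where all genes had 12.6% and 11.4%). LATS2, the Hippo kinase that writes the 14-3-3 site of YAP, averaged 74.6 ± 3.48 CPM in siERRα and 137 ± 3.86 CPM in siNC (SD, n = 3 each; log2 fold change −0.87). MAPKAPK2, a kinase downstream of p38, had a log2 fold change of 0.53, PRKD1 of −0.55 and PIM1 of −0.48.

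Of 8 genes for phosphatases that act on docking sites, 6 were called lower and 1 higher with imatinib, where 20.3% and 21.4% of all genes were. PPP2R1B, a scaffold subunit of PP2A, stood at 23.5 ± 1.80 CPM with imatinib and 37.2 ± 1.93 CPM in siNC (SD, n = 3 each). Its log2 difference was −0.66 (edgeR, adjusted p = 9.37e-07). The catalytic subunit genes PPP2CB, PPP1CA and PPP1CB fell by 0.40, 0.32 and 0.26 on the log2 scale. The 1 gene called higher was PPP2R1A, also a scaffold subunit of PP2A and more abundant than PPP2R1B, named after its values were seen. PPP2R1A stood at 336 ± 16.4 CPM with imatinib and 300 ± 18.9 CPM in siNC (SD, n = 3 each). It rose by 0.16 on the log2 scale (adjusted p = 0.0449 from edgeR). The median of the 8 was −0.25. After knockdown 0 of the 8 were called by edgeR, by DESeq2 or by limma-voom, where edgeR called 12.6% of all genes lower and 11.4% higher, and 2 had an unadjusted p under 0.05 with each tool. With edgeR these were PPP2CA, a catalytic subunit of PP2A (−0.18), and SHOC2 (0.17), which forms a phosphatase complex with PP1, named after their values were seen.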

How the data were processed

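PolyA RNA of 9 libraries was sequenced as read pairs of 100 bases. According to the submitters' processing notes, STAR 2.7.3a aligned the pairs to GRCh38, and featureCounts 2.0.1 assigned them to genes. The authors deposited these counts per gene without normalization. For the gene annotation used, strandedness and reads with several matches, the settings were not given in the sources used here. Positions come from GENCODE 44 on GRCh38, whose symbols matched 98.8% of the rows.

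From the counts, rows with at least 10 counts in enough libraries (filterByExpr) were kept, TMM factors were computed, and a quasi-likelihood model over all 9 libraries was fitted in edgeR 4.0.16. P-values were adjusted by Benjamini-Hochberg over the 16976 genes tested, and a gene was called at an adjusted p under 0.05. DESeq2 1.42.0 and limma 3.58.1 (voom) were alternatives, beside other filters, scalings, a replicate block, thinned counts and leaving out each library. The fit was tested on simulated data. Library pairs of a group differed beyond sampling noise (chi-square per degree of freedom 3.77 to 16.5).

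The 14-3-3 genes and all gene lists were chosen with earlier results of these data known. Named are ESRRA, every 14-3-3 gene, processed copies with at least 1 CPM in a group, the 4 called genes of smallest p in each list, the 5 genes most similar to YWHAZ and the 3 most similar to each other member, and markers. Exceptions are named as such in the text, and a few named items are not reported here.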

Additional observations from a re-analysis of the deposited data

How the results depend on the processing

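Of 279 alternative values, 266 kept their direction and their side of the threshold, stayed within the spread or met a looser rule. That rule was for numbers of genes called, which had to stay within a set factor of the main fit. Under it 2910 calls after knockdown, against 4064, counted as kept. With imatinib the 6 genes tested kept their side of the adjusted p threshold under 9 leave-one-out fits and 6 other alternatives. Over these the adjusted p from edgeR, DESeq2 or limma lay between 9.48e-05 and 0.00845 for YWHAZ, between 0.0911 and 0.305 for YWHAB, and between 0.00040 and 0.0207 for YWHAH. Under other filters, thinned counts and a minimum fold change, only the numbers of calls over all genes were compared. The greatest imatinib change of the family in size, −0.38 for YWHAG, is under the minimum of 0.5 on the absolute log2 fold change. None of the 6 genes would therefore be called with imatinib under that minimum. The log2 fold change of YWHAQ with imatinib turned to −0.020 without imatinib replicate 2 (S17), and it ranged from −0.020 to 0.072 over the leave-one-out fits. With a minimum of 0.5 on the absolute log2 fold change, 1233 genes were called after knockdown (897 lower and 336 higher, 72.7% lower), against 4064 without this minimum, and 2988 with imatinib (1191 lower and 1797 higher, 39.9% lower), against 7072. Leaving out 1 library gave 2910 to 4401 calls after knockdown and 5794 to 7780 with imatinib.

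The log2 ratio of the family total with imatinib was −0.26 with plain library totals, against −0.20 with TMM. After knockdown it was −0.15 without YWHAZ, against −0.35 with it. Leaving out 1 library gave −0.38 to −0.33 after knockdown and −0.22 to −0.18 with imatinib. Per length of all exons joined, YWHAZ held 4.97% of the family in siERRα, 10.3% with imatinib and 11.1% in siNC. Per length of the canonical transcript it held 5.73%, 11.3% and 12.1%. Its share of counts without 1 library was 11.2% to 11.8% in siERRα, 21.4% to 21.9% with imatinib and 22.6% to 23.3% in siNC.

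The numbers in the library names were run as a replicate block, which gave 3652 calls after knockdown and 6764 with imatinib and changed no call of a 14-3-3 gene with imatinib. Deviations of libraries with the same number had correlations of −0.0996 to −0.00815 after knockdown and −0.0679 to −0.00507 with imatinib. For libraries with different numbers they were −0.0556 to 0.0926 and −0.0579 to 0.0717. The deviations were taken from the mean of each group of 3 libraries, so these values cannot decide whether libraries were paired. SFN, at 0 to 5 counts a library, lies where depth allows no comparison.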
